A study of Rattus norvegicus with 8 samples.

Results

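The genes described here are the subunits of the transcription factor NF-kB and the proteins that hold it back: Nfkb1, Nfkb2, Rel, Rela, Relb, Nfkbia, Nfkbib, Nfkbie, Nfkbiz and Tnfaip3. A gene was taken as measured where the platform annotation gave a probe set exactly 1 symbol equal to its own. This held for 7 of the 10 genes, with 1 probe set each, out of 28826 probe sets on the array (14497 genes with a symbol). Rel, Relb and Tnfaip3 had no such probe set, also when matched by gene ID, and their transcripts were not analysed here.

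The samples were left ventricles of female rats in late pregnancy, frozen after ischemia, the interruption of blood flow, and reperfusion, its return. Reperfusion was accompanied by vehicle in 3 samples (placebo) and with a single bolus of 5 mg/kg in 5 samples that the labels call ILPD. The series text writes the treatment as ITLD and its title names Intralipid, a lipid emulsion, so that these names stand for 1 treatment is assumed here. All 8 hearts carried the ischemic injury, no strain or age is given in the labels, and no heart without ischemia was analysed here. The labels do not say that each sample came from its own animal, so the p-values rest on the variation among these samples, part of which may be technical.

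NF-kB is a dimer of proteins that share a DNA-binding domain. Rela, Rel and Relb carry an activating domain, whereas Nfkb1 and Nfkb2 encode precursors that are cut to the DNA-binding partners. In unstimulated cells, inhibitors of the IkB family, encoded by Nfkbia, Nfkbib and Nfkbie, bind the dimers and keep them out of the nucleus. Cytokines and Toll-like receptor ligands lead to phosphorylation and destruction of the inhibitors, and the freed dimers switch on inflammatory genes. Nfkbia is itself a target of NF-kB, which closes a negative feedback loop. In the reperfused heart the pathway is known for driving cytokine, chemokine and adhesion molecule genes in muscle, vessel and blood-borne cells.

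The windows around the transcription starts of these genes were read because several are known targets of the factor they encode. Each window ran from 250 bases before to 50 bases after the start in RefSeq (assembly GRCr8), and 9 of the 10 genes had one, the exception being Relb. The kB motif GGGNNTTTCC, searched on both strands, was chosen after these windows had been read. It was found in 6 of the 9 windows, against 512 of 33469 windows of the same length over all genes in the table (1.53%). The wider kB consensus, which overlaps with this motif, was found in 7 of the 9 and in 4.18% of all windows. Rel and Tnfaip3 also held the motif, and Rela, Nfkbib and Nfkbie did not; Nfkbie held the wider consensus. The 4 measured genes with a match are printed on the strand of the gene, 5′ to 3′, with the match in capitals, since they include both the gene that changed most and genes that differed little. For Nfkbia the whole window of 300 bases (chr6:78597023-78597322, minus strand) is given, because it is the inhibitor the results turn on. The others are stretches of 40 bases, at chr11:58251693-58251732 (plus strand) for Nfkbiz, chr2:226805435-226805474 (minus strand) for Nfkb1 and chr1:255108339-255108378 (plus strand) for Nfkb2.
Nfkbia: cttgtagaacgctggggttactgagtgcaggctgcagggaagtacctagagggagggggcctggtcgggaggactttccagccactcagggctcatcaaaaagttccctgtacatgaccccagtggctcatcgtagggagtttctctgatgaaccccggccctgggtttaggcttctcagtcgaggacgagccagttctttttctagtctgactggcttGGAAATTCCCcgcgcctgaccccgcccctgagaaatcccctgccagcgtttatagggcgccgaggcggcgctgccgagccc
Nfkbiz: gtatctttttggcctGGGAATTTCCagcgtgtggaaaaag
Nfkb1: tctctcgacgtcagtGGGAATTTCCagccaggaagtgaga
Nfkb2: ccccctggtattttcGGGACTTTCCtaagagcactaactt
In Nfkbia the match lay at bases -31 to -22 on the opposite strand, and in Nfkbiz at -13 to -4, in Nfkb1 at 4 to 13 and in Nfkb2 at -20 to -11 on the gene's strand, counted from the start as base 1. A match describes letters in these windows and does not show that the factor was bound.

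**Figure D1:**
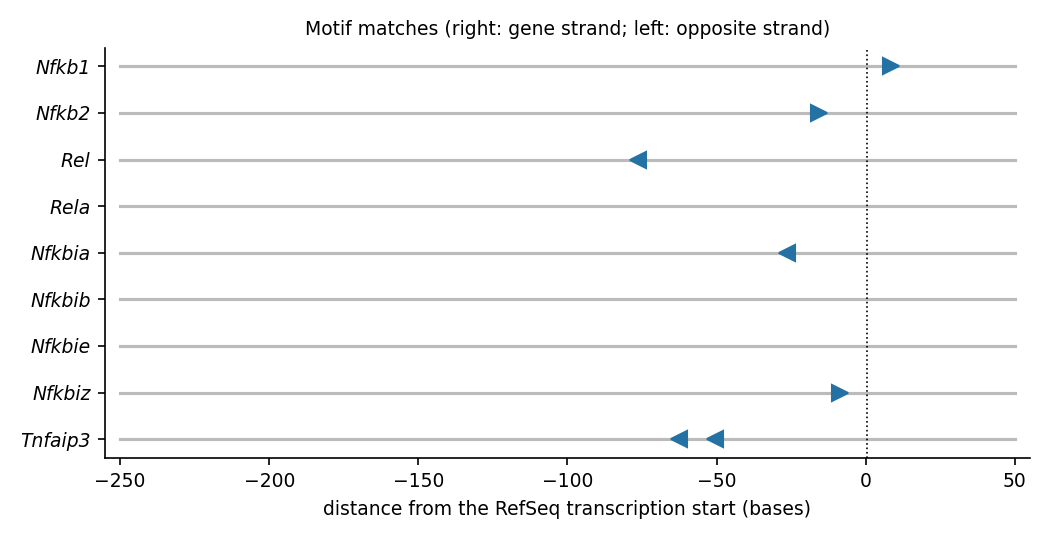
Position of each GGGNNTTTCC match (triangle, pointing right on the strand of the gene and left on the opposite strand) relative to the RefSeq start, in bases, in the 9 windows available. The 6 genes with a match include Nfkbia, Nfkbiz, Nfkb1 and Nfkb2, and the lines of Rela, Nfkbib and Nfkbie are empty.

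Of the 7 measured genes, 1 rose in ILPD hearts and 0 fell. Nfkbia, the inhibitor that NF-kB induces, was 1.63-fold higher. In the values as deposited the subunit genes Nfkb1, Nfkb2 and Rela differed by at most 0.14 on the log2 scale and did not pass. After cyclic loess normalization Rela differed by 0.26, again without passing, and Nfkbia by 0.82. Nfkbiz leaned upward and Nfkbib downward, both without passing. The test was limma over all probe sets with Benjamini-Hochberg adjustment, two-sided, and a gene is said to have risen or fallen where its adjusted p was under 0.05. Over the whole array 1.96% of probe sets rose and 0.857% fell, together 811 probe sets (2.81%). At an unadjusted p under 0.05 stood 3 of the 7 genes, Nfkbia, Nfkbiz and Nfkbib, against 18.3% of all probe sets. The median difference of the 7 genes was 0.08, and that over all probe sets 0.02. A positive difference was seen for 5 of the 7 genes and for 58.5% of all probe sets.

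**Figure D2:**
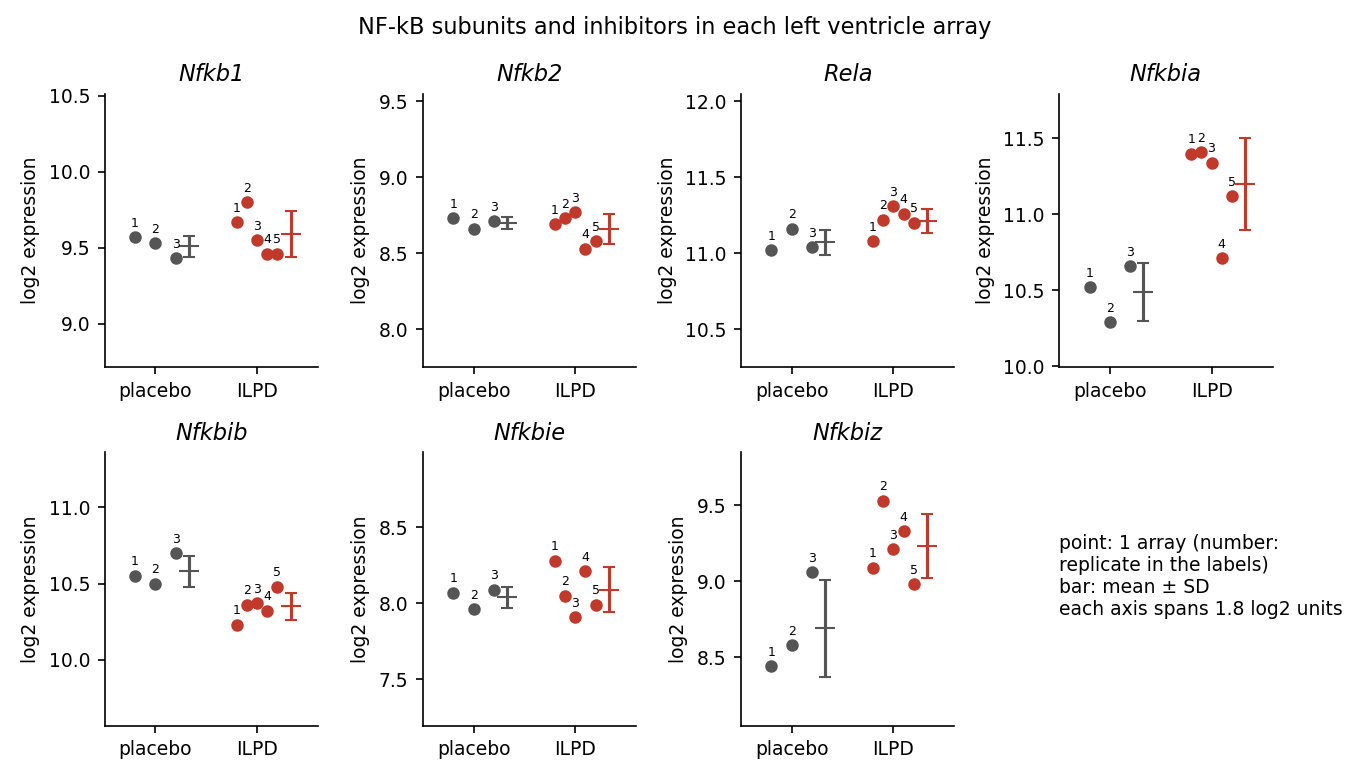
Log2 expression of the 7 measured genes in each array, 3 placebo (grey) and 5 ILPD (red), each point numbered by its replicate and with the mean ± SD beside it. In Nfkbia all ILPD points lie above all placebo points, with ILPD array 4 nearest to them at 10.71, and in Nfkbib all lie below.

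Among the subunits, Rela encodes the activating partner of the best-known NF-kB dimer. Its log2 values were 11.02, 11.16 and 11.04 in placebo arrays 1 to 3 and 11.08, 11.22, 11.31, 11.26 and 11.20 in ILPD arrays 1 to 5. All 5 ILPD arrays lay above the placebo mean and 4 above the highest placebo array, while ILPD array 1 lay among the placebo values. The means were 11.07 ± 0.08 (SD, n = 3) and 11.21 ± 0.08 (SD, n = 5), a ratio of 1.10 with a 95% interval from 0.998 to 1.22. The difference did not pass (0.14, SE 0.06, limma adjusted p = 0.282). It was 0.25 after a further quantile normalization and 0.26 after cyclic loess, again without passing.

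Nfkb1 encodes the precursor of the usual partner of Rela. Its values were 9.57, 9.53 and 9.43 in placebo and 9.67, 9.80, 9.55, 9.46 and 9.46 in ILPD. The groups overlapped: ILPD arrays 1 and 2 lay above every placebo array and the other three within their range. The difference of 0.08 (95% interval -0.11 to 0.26) did not pass (limma adjusted p = 0.698). Nfkb2, the precursor processed in the non-canonical branch of the pathway, had 8.73, 8.66 and 8.71 in placebo and 8.69, 8.73, 8.77, 8.53 and 8.58 in ILPD. ILPD arrays lay on both sides of the placebo values, 2 above the highest and 2 below the lowest. The difference was -0.04 (95% interval -0.19 to 0.11, limma adjusted p = 0.826). As ratios of ILPD to placebo, the intervals ran from 0.925 to 1.20 for Nfkb1 and from 0.879 to 1.08 for Nfkb2.

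Nfkbia encodes IkB alpha, the inhibitor that is destroyed and resynthesised in each round of NF-kB activation. Its values in placebo arrays 1 to 3 were 10.52, 10.29 and 10.66, and in ILPD arrays 1 to 5 they were 11.40, 11.41, 11.34, 10.71 and 11.12. ILPD arrays 1, 2 and 3 stood close together, and ILPD array 4 stood only just above placebo array 3. The groups did not overlap, as for 7.95% of all probe sets in this direction. The mean rose from 10.49 ± 0.19 (SD, n = 3) to 11.20 ± 0.30 (SD, n = 5), a difference of 0.71 (SE 0.16, 95% interval 0.36 to 1.06, limma adjusted p = 0.0462). An exact two-sided permutation test of this 1 value over the 8 arrays gave p = 0.0357, where 0.0179 is the smallest such a test can give. The call rested on most of the single arrays. The limma adjusted p was 0.122, 0.161 and 0.0951 without placebo arrays 1, 2 and 3, and 0.0678, 0.0959, 0.0907 and 0.0565 without ILPD arrays 1, 2, 3 and 5. Without ILPD array 4 it was 0.0106, with a difference of 0.83. With an intensity trend and a robust prior it was 0.0525, so the call was lost there too. In all 14 alternatives the difference stayed positive, between 0.61 and 0.90.

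Nfkbib encodes IkB beta, an inhibitor that is not known as a strong NF-kB target. Its values were 10.55, 10.50 and 10.70 in placebo and 10.23, 10.36, 10.37, 10.32 and 10.48 in ILPD. Every ILPD array lay below every placebo array, as for 4.42% of all probe sets, although ILPD array 5 lay only just below placebo array 2. The means were 10.58 ± 0.10 (SD, n = 3) and 10.35 ± 0.09 (SD, n = 5), a difference of -0.23 (SE 0.07, 95% interval -0.39 to -0.07) that did not pass (limma adjusted p = 0.116). The exact two-sided permutation test of this value alone gave 0.0179, the smallest it can give. Probe sets as bright as this one were lower in ILPD in general: those with a mean log2 value from 10 to 11 had a median difference of -0.10 (1701 probe sets, 5th to 95th percentile -0.34 to 0.30). After quantile normalization or cyclic loess the difference of Nfkbib was -0.14 (limma adjusted p = 0.382 and 0.394).

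Nfkbie encodes IkB epsilon, the third classical inhibitor. Its values were 8.07, 7.96 and 8.09 in placebo and 8.28, 8.05, 7.91, 8.21 and 7.99 in ILPD. The ILPD arrays surrounded the placebo values, with 2 above the highest and 1 below the lowest. The difference of 0.05 (95% interval -0.15 to 0.24, limma adjusted p = 0.842) turned to -0.02 after quantile normalization.

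Nfkbiz encodes IkB zeta, a nuclear member of the family that acts with NF-kB on a subset of its targets, among them Il6 and Lcn2. Its values were 8.44, 8.58 and 9.06 in placebo and 9.09, 9.53, 9.21, 9.33 and 8.98 in ILPD. All 5 ILPD arrays exceeded the placebo mean, but placebo array 3 stood above ILPD array 5 and close to ILPD array 1. The means were 8.69 ± 0.32 (SD, n = 3) and 9.23 ± 0.21 (SD, n = 5), a difference of 0.53 (SE 0.15, 95% interval 0.20 to 0.87). It did not pass the threshold (limma adjusted p = 0.0958, and from 0.0534 to 0.301 over 14 alternatives), and an exact two-sided permutation test of this value alone gave p = 0.0357. Without placebo array 3 the difference was 0.71 (limma adjusted p = 0.0576), and without placebo array 1 it was 0.41 (limma adjusted p = 0.301).

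**Figure D3:**
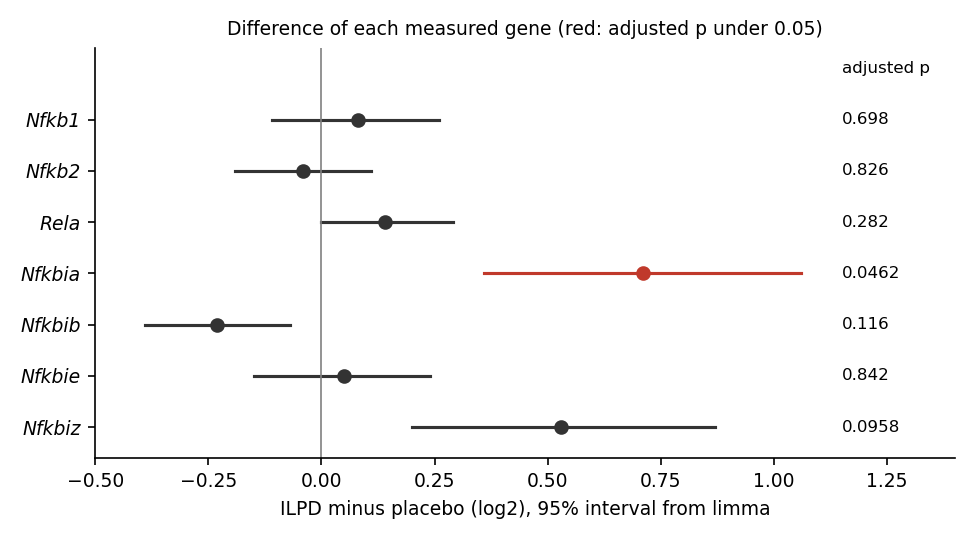
ILPD minus placebo on the log2 scale for the 7 measured genes, with the 95% interval from limma and the adjusted p at the right. Nfkbia (0.71, red) is the gene with an adjusted p under 0.05; the intervals of Nfkbiz and Nfkbib also lie on 1 side of 0.

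Nfkbia and Nfkbiz also varied most between arrays of the same group. Their pooled SD within groups was 0.27 and 0.25, larger than that of 95.8% and 95.2% of all probe sets, whereas that of the other 5 genes lay between 0.08 and 0.13. The array order of these 2 genes matched only in part. ILPD array 2 had the highest value of its group for both (11.41 for Nfkbia and 9.53 for Nfkbiz), as did placebo array 3 (10.66 and 9.06). ILPD array 4 had the lowest Nfkbia of its group (10.71) and the second highest Nfkbiz (9.33), and ILPD array 1 had the second highest Nfkbia (11.40) and the second lowest Nfkbiz (9.09).

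Beside the other genes of the family in the same arrays, Nfkbia was looked at after it had been singled out by its values, so the following is a description with no test. The log2 difference of Nfkbia and the other gene, taken within each array, was on average higher in ILPD by 0.63 for Nfkb1, 0.74 for Nfkb2 and 0.94 for Nfkbib, with no overlap between groups. It was higher by 0.56 for Rela and 0.66 for Nfkbie, where ILPD array 4 lay among the placebo values. For Nfkbiz it was higher by 0.17, with ILPD array 4 below every placebo array.

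Genes with a profile like that of Nfkbia were looked for among 14496 other named genes, by the root mean square difference over the 8 arrays after each profile was centred on its mean. The nearest 5 were Cd200r1, an inhibitory receptor of myeloid cells (0.151 log2 units), Amd1, an enzyme of polyamine synthesis (0.154), the hyaluronidase Hyal2 (0.161), Spsb1, an adaptor of a ubiquitin ligase (0.163), and the aspartoacylase Aspa (0.173). Nfkbiz ranked 506 by this measure (0.299), ahead of Nfkb1, which ranked 2137 (0.360), and Nfkbib ranked 13368 (0.510). The profiles were not centred within groups, so the ILPD minus placebo difference already reported enters this measure and its ranks.

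Upstream of NF-kB, 1 of 17 measured receptors and 3 of 37 measured kinases or adaptors rose, where 1.96% of all probe sets did. Among 17 measured receptors that feed the pathway, Il1r1, the receptor of interleukin-1, averaged 9.18 ± 0.07 (SD, n = 3) in placebo and 9.89 ± 0.14 (SD, n = 5) in ILPD, a rise of 0.71 (SE 0.08, limma adjusted p = 0.00343). Its values ran from 9.12 to 9.25 in placebo and from 9.74 to 10.10 in ILPD, and its call held in all 14 alternatives. The receptor list had 15 positive and 2 negative differences (58.5% of all probe sets were positive) with a median of 0.19, and 6 of 17 had no overlap between groups in the upward direction, against 7.95% of all probe sets. Tnfrsf1b, a TNF receptor (0.33, limma adjusted p = 0.0511), Tlr2 (0.46, 0.0956) and Cd14 (0.36, 0.454), which both sense bacterial products, did not pass; Tnfrsf1b passed without ILPD array 3, without the dimmest probe sets and after quantile or cyclic loess normalization.

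Of 37 measured kinases and adaptors, 3 rose and 0 fell, against 1.96% and 0.857% of all probe sets. Differences were positive for 21 and negative for 16, a share close to the 58.5% positive over all probe sets, and their median was 0.04. Ripk1, the kinase that docks at the TNF receptor, averaged 9.05 ± 0.20 (SD, n = 3) in placebo and 9.56 ± 0.10 (SD, n = 5) in ILPD, a rise of 0.51 (SE 0.09, limma adjusted p = 0.0227). Irak3, a brake on Toll-like and interleukin-1 receptor signalling, rose by 0.45 (SE 0.08, 0.0183), and Ikbke, a kinase related to those that phosphorylate IkB, by 0.34 (SE 0.05, 0.0137). Ikbke was dim, averaging 6.8 in placebo and 7.14 in ILPD, near the array medians of 7.08 to 7.20. Without overlap between groups, 10 of the 37 genes were higher in ILPD and 4 lower, against 7.95% and 4.42% of all probe sets. The 3 called genes were among the 10. These calls were lost without placebo array 2 (limma adjusted p = 0.0734 for Ripk1, 0.0638 for Irak3 and 0.0662 for Ikbke). Without placebo array 3 those of Irak3 (0.0605) and Ikbke (0.0575) were lost, and without placebo array 1 (0.0589) or ILPD array 2 (0.0550) that of Ripk1. As a count, leaving out placebo array 2 left 0 genes of the list, leaving out placebo array 3 left 1, and leaving out ILPD array 1 or 5 gave 5 or 6. The subunits of the kinase complex that marks IkB for destruction did not pass: Chuk differed by 0.13, Ikbkb by 0.07 and Ikbkg by 0.13 (limma adjusted p = 0.407, 0.802 and 0.391). These 3, added after their values were seen, lay outside the naming rule. The adaptor Myd88 (0.50, 0.0758), the ubiquitin ligases Traf6 (0.37, 0.0850) and Birc3 (0.36, 0.233) were the largest differences that did not pass. Myd88 and Birc3 passed without ILPD array 5, and Myd88 also with a block on the replicate number (limma adjusted p = 0.0334).

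Of 11 measured ligands 0 passed in limma, against 2.81% of all probe sets, and 3 had an unadjusted p under 0.05, against 18.3%. The interleukin-1 genes had the largest differences, 0.75 for Il1a (limma adjusted p = 0.0830) and 0.67 for Il1b (0.284), followed by Il33 with 0.37 (0.256). Il1a passed without ILPD array 5 and was then the 1 ligand called. With a block on the replicate number Il1a and Il33 passed (limma adjusted p = 0.033 for each). Tnf differed by 0.13 (0.636) and was likewise added after its value was seen.

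Of 17 further measured regulators of NF-kB, 1 rose, against 1.96% of all probe sets. Pdlim2, known as a ubiquitin ligase for nuclear Rela, rose by 0.40 (SE 0.08, limma adjusted p = 0.0258), from a range of 6.93 to 6.94 in placebo to a range of 7.18 to 7.54 in ILPD. Its call was lost without placebo array 1, 2 or 3 (0.0757, 0.0952 and 0.0880), without ILPD array 2 or 3 (0.0514 and 0.0523), and after quantile (0.0831) or cyclic loess (0.0730) normalization. The endonuclease Zc3h12a (0.26, limma adjusted p = 0.478), the protease Usp18 (0.21, 0.523) and the linear-ubiquitin protease Otulin (0.18, 0.285; its other probe set 0.15) did not pass. The list had 11 positive and 6 negative differences, against 58.5% positive over all probe sets, and a median of 0.04.

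**Figure D4:**
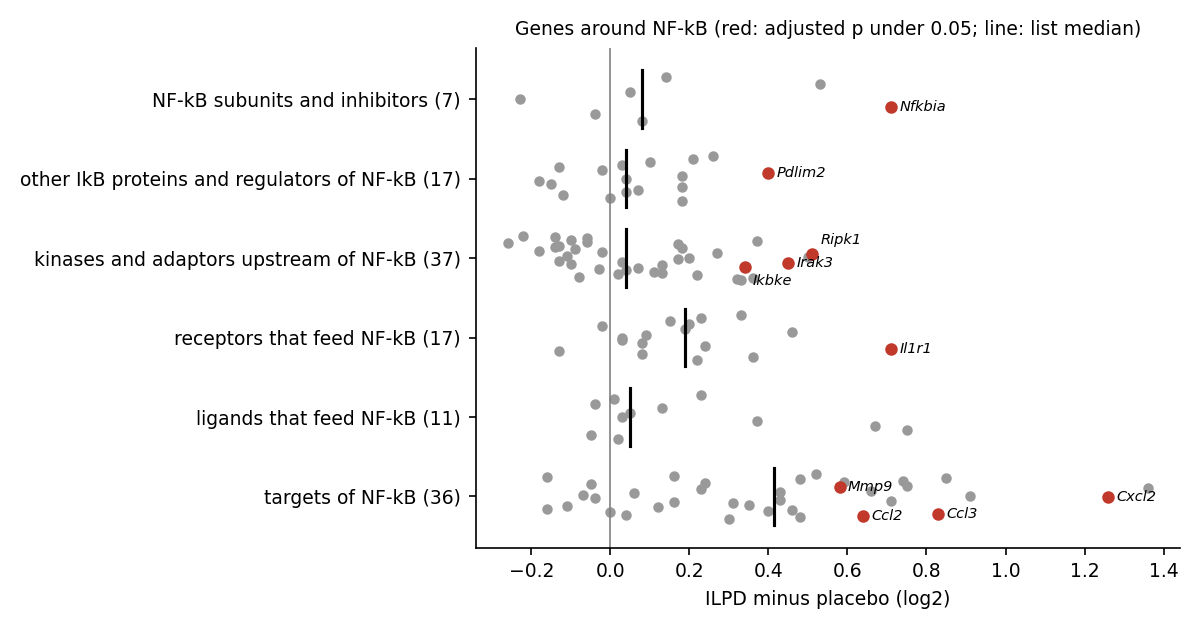
ILPD minus placebo on the log2 scale for every measured gene of each list (1 point a gene, number of genes in brackets), with called genes in red and the list median as a line. The medians of regulators, kinases and ligands lie at 0.04 to 0.05, that of the receptors at 0.19 and that of the targets at 0.41.

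Of 36 measured NF-kB target genes, 4 rose and 0 fell, against 1.96% and 0.857% of all probe sets. The list overlaps with cytokine genes already known from earlier results on these arrays, so its direction is no independent evidence. The chemokine Cxcl2, which draws neutrophils, rose by 1.26 (SE 0.24, limma adjusted p = 0.0291), from values of 7.64, 7.98 and 8.44 in placebo to 9.32, 9.77, 9.21, 9.48 and 8.61 in ILPD. Ccl3 rose by 0.83 (0.0292), the monocyte chemokine Ccl2 by 0.64 (0.0358) and the gelatinase Mmp9 by 0.58 (0.0466), the last with overlap between groups. The call of Mmp9 was lost in 12 of 14 alternatives, among them quantile (limma adjusted p = 0.0894) and cyclic loess (0.0851) normalization, the trend with a robust prior (0.0506) and array weights (0.0591). Differences were positive for 30 genes and negative for 6, against 58.5% positive over all probe sets, with a median of 0.41. At an unadjusted p under 0.05, 21 of the 36 were higher, where 18.3% of all probe sets had such a p in either direction. Bcl2l1, which restrains apoptosis, differed by 0.48 in the brighter of its 2 probe sets, which did not pass (limma adjusted p = 0.0750), and by 0.44 in the dimmer one, which did (0.0424) but is not in the count. It was named after its values were seen. The siderophore-binding Lcn2 (1.36, limma adjusted p = 0.119), tissue factor F3 (0.91, 0.0601) and P-selectin Selp (0.85, 0.196) did not pass. In 4 of 14 alternatives F3 did, among them without placebo array 3 and with array weights (limma adjusted p = 0.0352). Lcn2 and Selp passed in 2, without ILPD array 5 and with a block on the replicate number (limma adjusted p = 0.045 and 0.0108). The count of calls fell to 0 when placebo array 1, placebo array 2 or ILPD array 2 was left out, to 1 for ILPD array 4 and to 2 for placebo array 3, and it was 7 when ILPD array 5 was left out.

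The tissue label was checked with 15 ventricular cardiomyocyte markers, all measured, whose summed level (log2 of the summed intensities) ran from 17.63 to 17.68 in placebo and from 17.44 to 17.62 in ILPD, without overlap. All 15 had a negative difference, whereas 58.5% of all probe sets had a positive one. Their median was -0.14, and 1, the troponin Tnnc1, fell (-0.37, limma adjusted p = 0.0195), against 0.857% of all probe sets. Probe sets as bright as these were lower in ILPD in general. Those with a mean log2 value from 12 to 15 also had a median difference of -0.14 (619 probe sets, 5th to 95th percentile -0.35 to 0.17). In bulk tissue, fewer cells of a type and less RNA per cell cannot be told apart, and neither was separated here from this general shift. Of 14 measured neutrophil markers 14 had a positive difference, against 58.5% of all probe sets. Of these 1, Mmp9, rose, against 1.96% of all probe sets, and its call was lost in 12 of 14 alternatives as above. The median difference of the 14 markers was 0.53. It ranged from 0.01 for Mpo to 1.32 for Mmp8, which did not pass (limma adjusted p = 0.0511). The summed level of the neutrophil markers was 11.92, 11.27 and 11.35 in placebo arrays 1 to 3. In ILPD arrays 1 to 5 it was 12.75, 12.56, 11.74, 12.44 and 11.93. ILPD arrays 1 and 2 had both the highest neutrophil sums and the highest Nfkbia (11.40 and 11.41). ILPD array 3, with Nfkbia at 11.34, had a neutrophil sum within the placebo range, and ILPD array 4, with the lowest Nfkbia of its group, had one above that range. Of 14 monocyte and macrophage markers 1, Cx3cr1, rose, against 1.96% of all probe sets. Differences were positive for 11 and negative for 3, against 58.5% positive over all probe sets. Their sum ran from 13.15 to 13.60 in placebo and from 13.57 to 14.18 in ILPD. The sums of the T and NK cell list (11.60 to 11.78 against 11.71 to 11.85) and the B cell list (9.05 to 9.35 against 8.99 to 9.69) overlapped between groups, as did those of the endothelial (13.86 to 13.87 against 13.84 to 14.05), fibroblast (14.48 to 14.53 against 14.35 to 14.53) and smooth muscle and pericyte (13.82 to 13.95 against 13.87 to 14.08) lists. Called among these were Klrd1 (1 of 14 in the T and NK cell list), Egfl7 and Robo4 (2 of 12, endothelium) and Kcnj8 (1 of 9, smooth muscle and pericytes). All were higher, as were 1.96% of all probe sets. Placebo array 2 had the highest sum of 4 atrial markers, 13.56 against 11.77 to 12.87 in the other arrays. That sum rested on Myl7, which was 13.18 there. Nppa was highest in placebo array 1 (11.67), and Sln and Bmp10 were highest in ILPD array 1 (10.1 and 6.91). The Nfkbia call weakened most without placebo array 2, which had the lowest Nfkbia of all arrays (10.29). Without that array the calls over all probe sets also fell, from 811 to 172. A link to these atrial markers was not tested. The part of these cell types in the differences of the NF-kB genes was not tested.

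**Figure D5:**
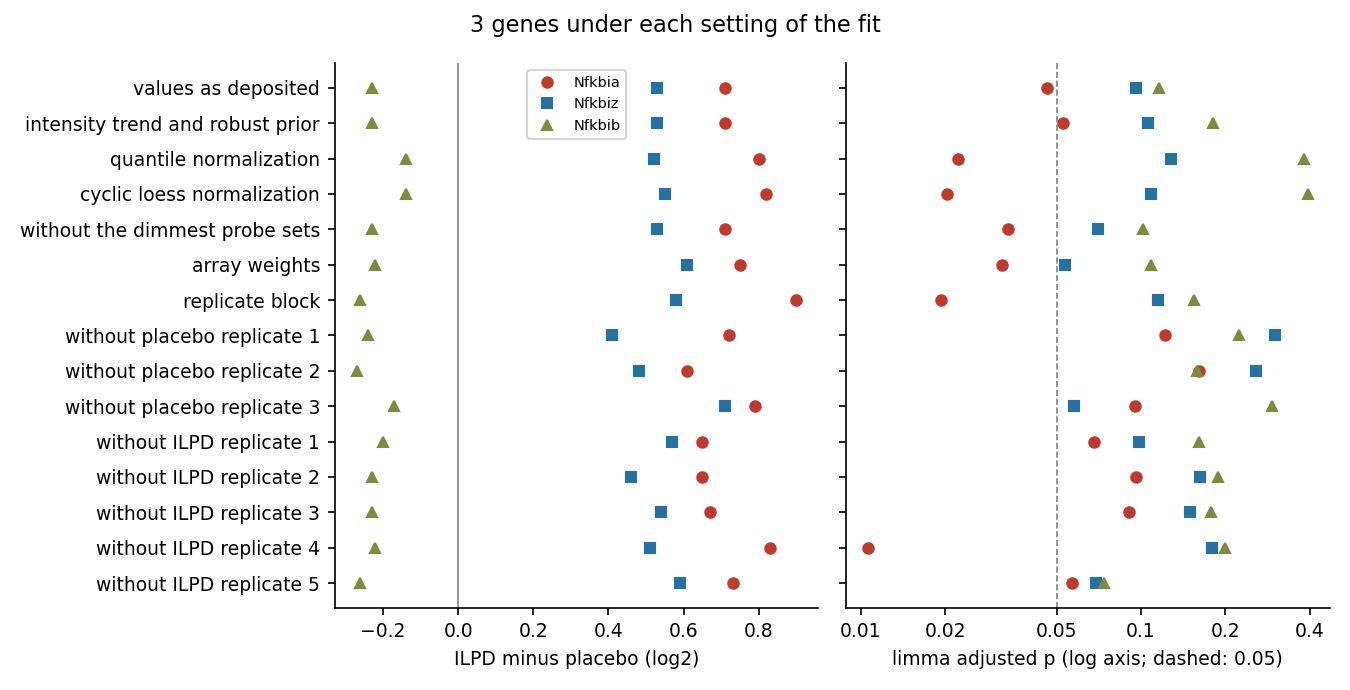
Difference (left, log2) and limma adjusted p (right, log axis, dashed line at 0.05) of Nfkbia, Nfkbiz and Nfkbib for the values as deposited and under 14 alternative settings. Nfkbia stays between 0.61 and 0.90 and crosses the line to the right without most single arrays; Nfkbiz and Nfkbib lie right of the line in every setting shown.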

How the data were processed

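The authors deposited 1 log2 expression value per probe set for 8 Affymetrix arrays of total RNA, 3 placebo and 5 ILPD per the labels. The scale was settled from the range of the values. Their summarisation and normalization are not stated in these sources; R 2.14.2 is named in the submitters' processing notes. No background signal was used, so no probe set was called undetected. Array medians ran from 7.08 to 7.14 in placebo and from 7.16 to 7.20 in ILPD, without overlap; precision is limited by how few arrays there are.

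Gene symbols came from the platform annotation, updated by gene ID through RefSeq (GRCr8); where a listed gene had several probe sets, the brightest stood for it. The test was limma's (version 3.58.1, R 4.3.3, constant prior, no covariates) over all 28826 probe sets, two-sided, with Benjamini-Hochberg adjustment. Simulated data had 200 changed probe sets in each of 5 runs of this comparison over 28826 probe sets. There, 86% of 1.5-fold and 98.2% of 2-fold changes were recovered and 4.44% of calls were false. Whether these rates hold for the real arrays, or for genes as variable as Nfkbia and Nfkbiz, was not tested. Named were all members, called genes of each list, the 3 largest uncalled ones, and the 5 nearest profiles. The members and lists were chosen with earlier results of these data known. The 14 alternatives are an intensity trend with a robust prior, quantile and cyclic loess normalization, array weights, removal of the dimmest 40% of probe sets, a block on the replicate number, and leaving out each array. A threshold of 0.1 was tried too. The comparison of Nfkbia with the other members within arrays was added after the data were seen. Figures used matplotlib 3.10.9.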

Additional observations from a re-analysis of the deposited data

Results flagged for a closer look

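In 2 of 31 named genes, 1 of the 5 ILPD arrays stood far from the other four by Dixon's criterion, which chance meets in about 1 of 20 groups. Both were ILPD array 3. Otulin, the protease that removes linear ubiquitin, was 9.27 there against 8.91 to 8.99 in the other ILPD arrays. Mmp9, the gelatinase, was 7.07 there against 7.49 to 7.63. None of the 7 NF-kB subunit and inhibitor genes had such an array.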

How the results depend on the processing

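Of the 7 measured genes, Nfkb1, Rela, Nfkbia, Nfkbib and Nfkbiz kept their sign in all 14 alternatives. Nfkb2 turned to 0.03 with the replicate block, and Nfkbie to -0.02 after quantile normalization and to -0.00 without ILPD array 1, neither ever called. The number of these genes called was 1 as deposited, 0 with a trend and robust prior, 2 at a threshold of 0.1 (Nfkbiz added) and 0 to 1 without single arrays. Over all probe sets 811 calls became 484 after quantile normalization, 459 with the replicate block, 1756 at a threshold of 0.1 and 172 to 975 without single arrays. Regulators (1) had 0 calls after quantile and after cyclic loess normalization and 0 to 1 without single arrays. Kinases and adaptors (3) had 5 after cyclic loess, 5 with array weights, 9 at 0.1, 0 to 6 without single arrays and 2 with the replicate block, of which 1 was among the 3; Irak3 (adjusted p = 0.0766) and Ikbke (0.0687) were lost there. Receptors (1) had 2 after quantile, 2 after cyclic loess and 2 without dim probe sets, 3 at 0.1 and 1 to 2 without single arrays. Ligands (0) had 2 with the replicate block, 1 at 0.1 and 0 to 1 without single arrays. Targets (4) had 8 with the replicate block, 10 at 0.1 and 0 to 7 without single arrays. The cause of these shifts was not tested, except that a fit without an array has fewer samples. Deviations of same-numbered arrays correlated at 0.221, -0.0642 and -0.0980, and those of differently numbered arrays at -0.165 to 0.247. So few values cannot settle whether the replicate numbers pair the samples. No measured member had several probe sets, so averaging them was not needed.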
